A study of Homo sapiens with 36 samples.

Results

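The response of MINO cells to the KDM5 inhibitor GS716054 at 72 h was compared with the response of JEKO and UPN-1 cells. MINO, JEKO and UPN-1 are established human mantle cell lymphoma lines, a B-cell lymphoma that typically overexpresses cyclin D1. All 18 libraries collected at 72 h were used, of 36 in the series: JEKO, MINO and UPN-1, each with the vehicle DMSO or with GS716054, and 3 biological replicates in each of the 6 groups. The other 18 libraries, of the same lines and treatments at 24 h, served as a separate set for the same contrast and for untreated levels. No dose was given in the sources used here. Each line is a single line, so what belongs to MINO as a line and what belongs to its subtype or culture cannot be told apart. The labels call the samples biological replicates without saying whether cultures were separate, so p-values measure the spread between these samples.

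KDM5 enzymes (KDM5A, KDM5B, KDM5C and the Y-linked KDM5D) remove methyl groups from lysine 4 of histone H3, the mark of active promoters, and inhibiting them raises that mark. Mature B cells depend on the B-cell receptor, CD40 and NF-kappaB signalling. Their growth programme is driven by MYC, which activates ribosome and nucleotide synthesis, and amino acid supply is under the control of the transcription factor ATF4. Interferon signalling runs through receptor-associated kinases such as JAK1 to a large group of antiviral genes and to MHC class I.

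Reads in genes ranged from 8784815 to 14970876 per 72 h library, with a median of 12034546.5, and the shallowest was a treated MINO library. Mitochondrial transcripts took 1.905% to 6.337% of gene reads. All 6 B-cell markers and all 3 mantle cell lymphoma markers exceeded 1 CPM (the read count normalised to library size) in every line. Of 8 T and NK cell markers, CD3D, CD3G, CD2 and KLRD1 had 0 counts in all MINO libraries, while CD8A had a mean of 11 CPM in DMSO and 20.3 CPM treated. The sum of the 8 was 10 to 17.8 CPM in MINO DMSO and 15.4 to 33.8 CPM treated, above JEKO and UPN-1, and its part in the results was not tested. In MINO all 6 erythroid and platelet markers were at 0. The libraries with replicate number 2 stood apart in some genes in DMSO. BNIP3, a hypoxia-induced mitochondrial protein, was at 67.5, 413 and 66.3 CPM in MINO DMSO replicates 1, 2 and 3, and at 179, 475 and 101 CPM in UPN-1. Summed over 33 glycolysis and hypoxia genes, MINO DMSO had 13486, 36726 and 14402 CPM. The design set for this contrast compared each treated library with the DMSO library of its own line and number. In these same libraries, deviations from group means correlated between the 2 at 0.23 to 0.57 in all 9 pairs. In 8 of 9 pairs the own number gave the highest correlation, and MINO replicate 3 correlated at 0.23 with its own number and 0.26 with another. All 92 named genes kept their direction and their side of the threshold without MINO replicate 2.

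A gene was called where the edgeR p, adjusted by the Benjamini-Hochberg method over all genes tested, was under 0.05. The MINO effect was called for 3064 of the 17713 (17.3%), with 1630 raised by GS716054 (9.2%) and 1434 lowered (8.1%). In JEKO 547 were called (3.09%; 1.65% higher and 1.43% lower) and in UPN-1 212 (1.2%; 1% higher and 0.192% lower). The contrast asked for each gene whether the log2 effect in MINO differed from the mean of the effects in JEKO and UPN-1. It was called for 1414 genes (7.98%), of which 772 were higher in MINO relative to the other lines (4.36%) and 642 lower (3.62%). The median contrast over all genes was -0.02. Without the pairing by replicate number 46 genes were called, 27 higher and 19 lower. It was called for 793 genes without MINO replicate 1, 881 without MINO replicate 3, 844 without UPN-1 replicate 1 and 908 without UPN-1 replicate 3. In the same order, 421, 453, 464 and 520 of these were higher and 372, 428, 380 and 388 lower. Counts of list members in these fits, given below, are to be read beside these smaller totals. Without UPN-1 replicate 2 the balance turned, with 513 higher and 590 lower.

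A positive contrast arises from a rise in MINO or from a fall in the other lines, and both were present. Of the 772, the MINO effect itself was called as a rise for 655, and the JEKO effect was called as a fall for 73. Of the 642, MINO fell for 547, while JEKO rose for 45 and UPN-1 for 34. A gene is called particular to MINO below where its contrast, its difference from JEKO, its difference from UPN-1 and its MINO effect were all called with the same sign. MINO differed from JEKO at 1086 genes (6.13%) and from UPN-1 at 741 (4.18%). The full definition held for 447 genes (2.52% of those tested), 249 raised (1.41%) and 198 lowered (1.12%). In 203 of the 249 and 147 of the 198, the 3 treated and 3 DMSO MINO libraries did not overlap. Both sets were selected by a MINO effect called on these same libraries, so this separation is a description only. The share over all genes tested is not given here, so these counts have no background to be read against. The 249 raised genes had a median log2 effect of 0.85 in MINO, -0.05 in JEKO and -0.08 in UPN-1, and the 198 lowered genes had -0.97, 0.06 and 0.06. The number 447 was 165, 244 and 171 without UPN-1 replicate 1, 2 or 3, 244 without MINO replicate 1, 290 without JEKO replicate 2 and 9 without the pairing. Without MINO replicate 2 it was 663. List members counted below as higher or lower were called in the contrast, and need not be particular to MINO.

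**Figure D1:**
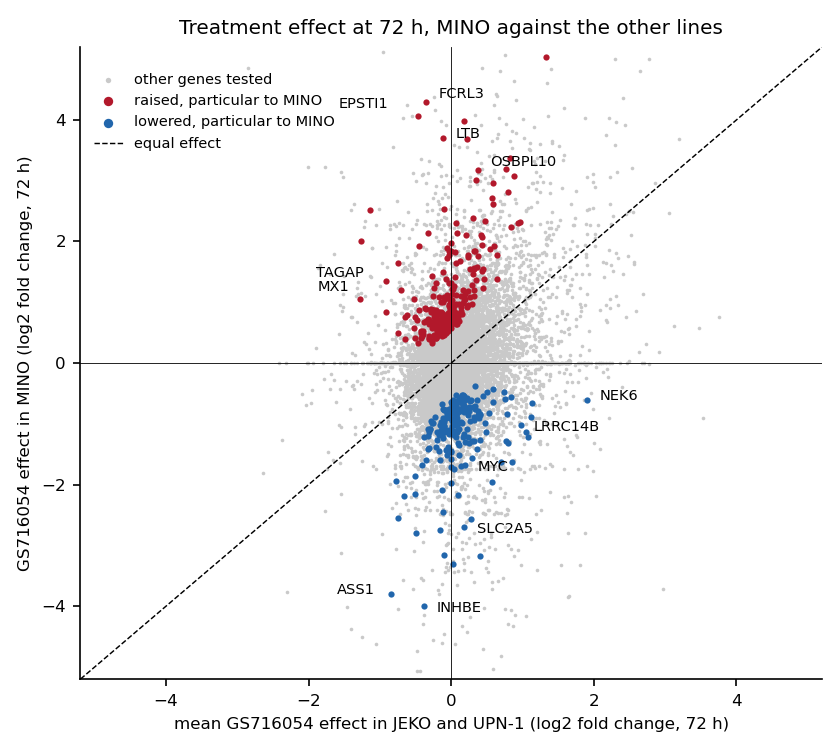
Each point is a gene, with the log2 fold change of GS716054 against DMSO at 72 h averaged over JEKO and UPN-1 on the horizontal axis and that in MINO on the vertical axis. The 249 raised genes (red) lie above the dashed line of equal effect and the 198 lowered genes (blue) below it, mostly near 0 on the horizontal axis, and 8 of the 17713 genes lie outside the axes.

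The definition was rarely met by a gene that another line hardly expresses. It requires a called difference from both lines, and few counts in a line leave little power for that. The rarity therefore does not show where genes with a MINO response are expressed. Of the genes whose MINO effect was called, 133 raised and 42 lowered genes had fewer than 30 counts over the 6 libraries of JEKO or of UPN-1. The contrast was called for 12 and 4 of these, and 1 raised and 1 lowered gene met the full definition, FCRL3 (8 counts in UPN-1) and NEK6 (13 counts in UPN-1). KDM5D, whose MINO effect was not called, had 17.3 to 21.7 CPM in MINO DMSO and 0 counts in JEKO and UPN-1, which allow up to 3 counts per library or 0.341 CPM in the shallowest.

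Among the genes with the largest rise particular to MINO were LTB, FCRL3 and SCIMP, which have roles at the lymphocyte surface. LTB (chromosome 6, 31580525 to 31582522, GRCh38), which encodes lymphotoxin beta, a membrane-anchored cytokine of the TNF family, stood at 26.5, 37.5 and 37.7 CPM in MINO DMSO replicates 1, 2 and 3 and at 421, 549 and 362 CPM with GS716054. All treated libraries were far above all DMSO libraries, though lack of overlap was a condition for naming the largest rises. In JEKO and UPN-1 no library exceeded 3.32 CPM with either treatment. The contrast was 3.81 (SE 0.397, adjusted p = 3.21e-05).

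FCRL3, an Fc receptor-like protein with inhibitory signalling motifs, rose in MINO from 0.397, 1.21 and 0.404 CPM to 9.23, 23.4 and 7.22 CPM. JEKO libraries held 1.12 to 1.75 CPM in DMSO and 2.09 to 2.70 CPM treated, and UPN-1 libraries at most 0.245 CPM. Its contrast was 4.64 (SE 0.642, adjusted p = 0.000376), with the UPN-1 effect resting on 6 DMSO and 2 treated counts (log2 -1.50, not called). The difference from JEKO alone was 3.49 for FCRL3, beside 4.90 for EPSTI1 and 4.12 for LTB. SCIMP, a membrane adaptor of antigen-presenting cells, rose from 1.98, 2.43 and 2.22 CPM to 22, 29.4 and 34.5 CPM in MINO. The JEKO and UPN-1 libraries stayed between 0.338 and 2.16 CPM, and the contrast was 3.46 (SE 0.406, adjusted p = 8.07e-05).

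Other genes rose in MINO from a level well below that of the other lines. OSBPL10, a lipid-transfer protein of the oxysterol-binding family, went from 1.51, 0.331 and 1.28 CPM to 11.5, 7.39 and 10.2 CPM, while JEKO DMSO libraries had 10.6 to 27.3 CPM and UPN-1 DMSO libraries 24.7 to 34.3 CPM. The contrast was 2.81 (SE 0.275, adjusted p = 1.86e-05). TLE2, a Groucho-type corepressor, rose from 0.397, 0.882 and 0.404 CPM to 2.91, 12.2 and 3.81 CPM, with a smaller rise in UPN-1 (log2 1.19, adjusted p = 0.00305). HRK, a BH3-only activator of apoptosis, rose from 3.97, 3.97 and 2.42 CPM to 10.6, 22.7 and 8.49 CPM, with a contrast of 2.38 (adjusted p = 5.51e-05). PECAM1, the adhesion receptor CD31, rose from 3.73, 2.65 and 3.57 CPM to 11.8, 21.7 and 12.9 CPM. PECAM1 is also an endothelial marker, and the sum of 6 fibroblast and endothelial markers went from 5.12 to 6.28 CPM up to 15.4 to 27 CPM in MINO, with COL1A2, DCN and VWF at 0. The remaining genes of the 15 with the largest rise were EPSTI1, MX1 and TAGAP (below), the guanine nucleotide exchange factor ARHGEF10L (contrast 2.66), the corepressor SKOR1 (2.64), the interleukin-23 subunit IL23A (2.24), CNIH2 (2.2) and FAM177B (2.14).

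**Figure D2:**
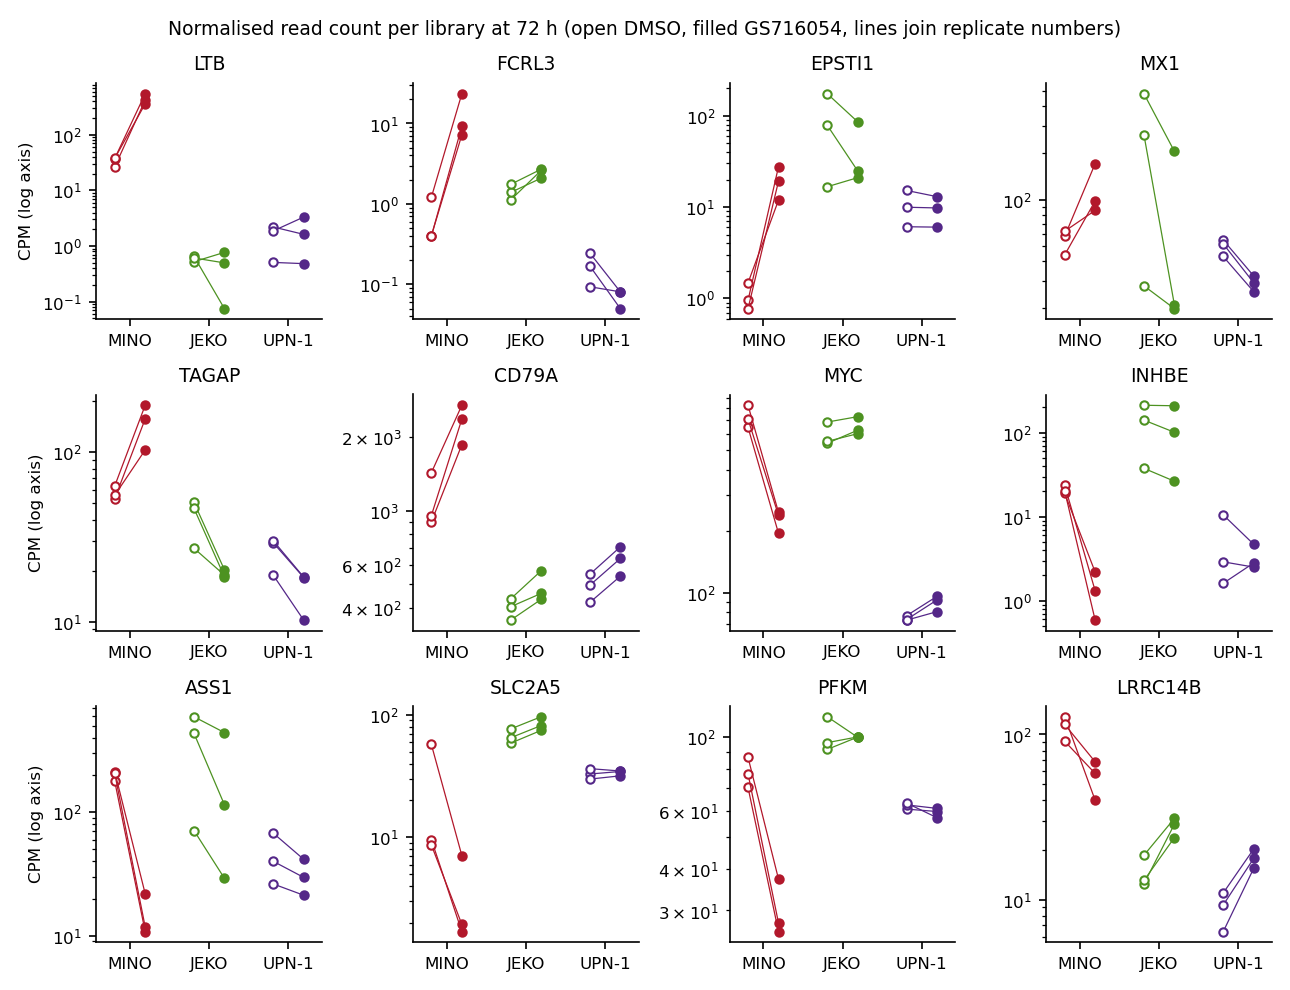
Normalised read count (CPM, log axis) of 12 genes in each 72 h library, with open circles for DMSO, filled circles for GS716054, lines joining libraries with the same replicate number, and values under 0.05 CPM drawn at 0.05. In MINO all treated points lie on 1 side of all DMSO points for each of the 12 genes, most narrowly for SLC2A5 (7.11 CPM in treated replicate 2, 8.68 CPM in DMSO replicate 3), while ASS1 also falls in JEKO. For genes named by the largest rise or fall, this separation was a condition of being named.

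Interferon-stimulated genes showed the highest median contrast of the 35 gene lists examined, with rises in MINO and falls in JEKO. Of 50 tested, 25 were called higher and 0 lower, beside 4.36% higher among all genes, with a median contrast of 1.09. Of these 25, 8 were particular to MINO. The median effect was 0.67 in MINO, where 20 rose and 0 fell, -0.83 in JEKO, where 25 fell and 0 rose, and -0.17 in UPN-1, where none was called. Among all genes 9.2% rose in MINO and 1.43% fell in JEKO. The JEKO fall differed between replicates. Median log2 ratios per pair were -0.84, -0.08 and -1.55 in JEKO replicates 1, 2 and 3, against 0.51, 0.46 and 0.39 in MINO. In DMSO at 72 h the 50 genes summed to 3486, 894 and 2016 CPM in JEKO and to 884, 1332 and 908 CPM in MINO. With GS716054 the sums were 1981, 900 and 827 CPM in JEKO and 1453, 1495 and 1292 CPM in MINO. JEKO replicate 2 was thus low with either treatment, while replicates 1 and 3 were high in DMSO and lower with GS716054. Without JEKO replicate 2, 26 were called higher, and without MINO replicate 1, 16. Fewer expressing cells and less RNA per cell cannot be told apart in these bulk libraries.

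EPSTI1, an interferon-induced gene (chromosome 13, 42886388 to 42992271), went from 0.952, 0.772 and 1.48 CPM to 27.7, 19.2 and 11.9 CPM in MINO. In JEKO it was at 174, 16.7 and 78.5 CPM in DMSO and 85.6, 21 and 24.8 CPM treated, and in UPN-1 at 6.09 to 15.2 CPM in DMSO. Treated MINO thus overlapped the UPN-1 range, and the contrast was 4.53 (SE 0.444, adjusted p = 1.86e-05). MX1, an antiviral GTPase, rose in MINO from 58.1, 44 and 62.6 CPM to 171, 98.2 and 85.3 CPM (log2 1.05, adjusted p = 0.0491). Its difference from UPN-1 was near the threshold as well (1.84, adjusted p = 0.0492). MX1 fell in JEKO from 483, 27.8 and 262 CPM to 205, 19.8 and 20.9 CPM (log2 -1.78, adjusted p = 0.0169). The JEKO DMSO libraries of 24 h held 29.1, 22.7 and 47.5 CPM of MX1. LGALS3BP, a secreted glycoprotein, rose from 9.68, 12.2 and 9.15 CPM to 35.5, 45.1 and 31.9 CPM in MINO with no fall in JEKO (log2 0.39, adjusted p = 0.0933), and its contrast was 1.51 (SE 0.159).

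Promoter sequence is shown for EPSTI1 and LGALS3BP, named members of this list that carry the core of the interferon-stimulated response element, which interferon-activated factors bind. The 250 bases before the annotated start are given 5′ to 3′ in the gene's direction, from RefSeq promoters of GRCh38.p14, for EPSTI1 at chr13:42992242-42992491 (minus strand) and LGALS3BP at chr17:78979924-78980173 (minus strand). Capitals mark the match, GAAA followed after any 2 bases by a second GAAA, 50 bases before the start in EPSTI1 and 58 in LGALS3BP.
EPSTI1: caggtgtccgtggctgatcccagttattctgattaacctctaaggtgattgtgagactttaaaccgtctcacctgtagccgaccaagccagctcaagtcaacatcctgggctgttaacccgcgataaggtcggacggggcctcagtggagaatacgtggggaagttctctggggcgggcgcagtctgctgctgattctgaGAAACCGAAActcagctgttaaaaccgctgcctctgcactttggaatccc
LGALS3BP: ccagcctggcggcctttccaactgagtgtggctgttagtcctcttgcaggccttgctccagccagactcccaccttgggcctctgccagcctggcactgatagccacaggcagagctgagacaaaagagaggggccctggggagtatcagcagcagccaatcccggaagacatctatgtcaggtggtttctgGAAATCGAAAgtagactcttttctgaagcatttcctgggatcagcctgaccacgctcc
With both strands searched and 50 further bases after the start included, the motif was found in 34 of 53 promoters (64.2%) of the interferon-stimulated genes, whatever their response, and in 1255 of 35116 promoters of all genes (3.57%). It was found in 19 of 346 promoters (5.49%) of the raised genes and in 8 of 243 (3.29%) of the lowered genes. Promoters were matched for 190 of 248 raised and 150 of 197 lowered gene symbols, and a gene can have more than 1. A match is a description of letters only.

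Upstream of these genes, 8 of 26 interferon regulators and nucleic acid sensors were called higher and 0 lower (median contrast 0.40). JAK1, the receptor-associated kinase, rose in MINO from 150, 215 and 159 CPM to 239, 427 and 264 CPM and had log2 effects of 0.01 in JEKO and 0.02 in UPN-1, neither called. The adaptor MYD88 (contrast 0.79) and the receptor chain IFNAR2 (0.68) were also particular to MINO.

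Of 29 MHC genes, 8 were higher in the contrast and 0 lower (median 0.41), and 3 of the 8 were particular to MINO. In MINO itself 10 rose and 2 fell, beside 9.2% and 8.1% of all genes. The median log2 ratio of the list was 0.32, -0.01 and 0.49 in MINO pairs 1, 2 and 3. HLA-B went from 439, 913 and 433 CPM to 756, 877 and 856 CPM in MINO. The treated and DMSO libraries overlapped, because DMSO replicate 2 was as high as the treated libraries. The contrast was 1.09 (adjusted p = 0.00275). Reads of near-identical HLA genes may be split between them. Without MINO replicate 2 the number called higher was 16, without MINO replicate 1 or 3 it was 4, and without UPN-1 replicate 3 it was 5. TAPBP, the peptide-loading chaperone tapasin, had a contrast of 0.69, with 21.0% of its exon length overlapped by a gene on the opposite strand.

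Of 30 genes of B-cell receptor signalling, 7 were called higher in the contrast and 0 lower (median 0.28), and 4 of the 7 were particular to MINO. In MINO itself 9 rose and 1 fell, beside 9.2% and 8.1% of all genes. CD79A, the signalling chain of the B-cell receptor, went from 898, 1430 and 954 CPM to 1864, 2706 and 2374 CPM, against 355 to 434 CPM in JEKO DMSO and 420 to 548 CPM in UPN-1 DMSO. The contrast was 0.77 (SE 0.147, adjusted p = 0.00395). The 7 included the adaptor DAPP1 (0.77), BCL10 (0.80), which couples the receptor to NF-kappaB, and the kinase BLK (0.59), which was not called without MINO replicate 3. Without MINO replicate 1 or 3, or UPN-1 replicate 1 or 3, 4 of the 30 were called. Among all genes, 421 to 520 were then called higher, against 772 with all libraries. Of 11 Fc receptor and Fc receptor-like genes, 4 were higher and 0 lower (median 0.59), among them FCRL2 (1.96) and the inhibitory receptor FCGR2B (0.97), which has close paralogs.

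In the NF-kappaB pathway, 8 of 30 genes were higher and 0 lower (median 0.43), and 3 of the 8 were particular to MINO. CD40, a TNF receptor family member that activates B cells, rose in MINO from 59.5, 63.2 and 61.7 CPM to 120, 107 and 104 CPM and fell in JEKO from 53.5, 45.7 and 55.8 CPM to 34.9, 34.9 and 33.8 CPM. The groups did not overlap in either line, and the contrast was 1.11 (SE 0.138, adjusted p = 0.000141). RELB, a subunit of the non-canonical pathway, was called in opposite directions too (log2 0.53 in MINO, -0.67 in JEKO). CFLAR, an inhibitor of caspase 8, had a log2 effect of 0.84 in MINO, -0.07 in JEKO and 0.15 in UPN-1, called in MINO, with a contrast of 0.80 (adjusted p = 0.00254). Of 25 TNF superfamily genes, LTB, CD40 and CD27 were higher. CD27 had a contrast of 1.39, but 42.5% of its exon length is overlapped by a gene on the opposite strand. Without MINO replicate 1, 4 of the 30 NF-kappaB genes were called, and without UPN-1 replicate 3, 5.

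Transcription factors of B-cell stages moved both ways, with 9 of 30 higher and 3 lower (median 0.11). SPIB, an ETS factor of B cells, rose in MINO from 168, 105 and 173 CPM to 362, 227 and 350 CPM (contrast 1.18, SE 0.153, adjusted p = 0.000197). ETS1 (1.05), AFF3 (0.86) and IKZF3 (0.74) were also particular to MINO. Without MINO replicate 1, 4 of the 30 were higher. PRDM1 and SDC1, a master factor and a surface marker of plasma cells, were chosen after their values were seen, as was XBP1. Their contrasts were -1.42 and -1.61 (adjusted p = 0.0014 and 0.00223). PRDM1 rose in JEKO (log2 1.35, adjusted p = 0.00164) and was -0.52 in MINO, not called. SDC1 rose in JEKO (1.52) and UPN-1 (1.25), and was -0.22 in MINO, not called. Over the plasma cell list, 1 of 18 genes was higher and 4 were lower, and the plasma cell factor XBP1 (-0.57) was among the latter.

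Among homing, chemokine and adhesion receptors, 8 of 27 were higher and 1 lower (median 0.42), and 2 of the 8 were particular to MINO. CCR7, which guides B cells to lymph nodes, rose in MINO from 154, 259 and 161 CPM to 316, 552 and 378 CPM (contrast 1.18, SE 0.136, adjusted p = 7.05e-05). Of 16 genes of the BCL2 family, 6 were higher and 0 lower (median 0.52), and these included activators of apoptosis (HRK, BBC3, BAX and BMF) and inhibitors (BCL2L1 and MCL1). Only 2 of the 6 were particular to MINO. BBC3, BAX, BMF and MCL1 were named after their values were seen. BCL2L1 (contrast 0.78) overlaps a gene on the opposite strand over 41.3% of its exon length. Of 29 AP-1 and EGR immediate early factors, 6 were higher and 2 lower. The phosphatase DUSP5 (1.58), JUND (0.80) and EGR1 (1.33) rose in MINO, and ATF3 (-1.51), a stress-induced member of the ATF family, fell. Without MINO replicate 1, 2 of the 29 were called higher and EGR1 was not (adjusted p = 0.0668), and without UPN-1 replicate 2 or 3, 3 were. CCND3, a D-type cyclin, had a contrast of 0.80 (adjusted p = 0.00547), and 4 of 16 cyclin D, CDK and inhibitor genes were higher (2 without MINO replicate 1 or 3 or UPN-1 replicate 1 or 2).

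The lists with many members called lower concerned growth and biosynthesis. MYC, the transcription factor that drives growth, fell in MINO from 645, 828 and 708 CPM to 195, 247 and 239 CPM. In JEKO it was at 539, 685 and 551 CPM in DMSO and 625, 728 and 601 CPM treated, and in UPN-1 at 73.2 to 77 CPM and 80.6 to 95.8 CPM. MINO and JEKO thus had similar levels in DMSO, and treated MINO lay between JEKO and UPN-1. The contrast was -1.88 (SE 0.131, adjusted p = 6.48e-07), and it was called without the pairing as well (adjusted p = 0.000458). MXD4, a repressor that competes with MYC for its partner MAX, rose in every line, and more in MINO (log2 1.39, against 0.71 in JEKO and 0.56 in UPN-1, contrast 0.75, adjusted p = 0.00595).

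Of 40 genes of ribosome biogenesis, 11 were called lower and 0 higher, beside 3.62% lower among all genes (median contrast -0.32). Only 3 of the 11 were particular to MINO. FBL, the methyltransferase fibrillarin of the nucleolus, fell in MINO from 247, 352 and 268 CPM to 156, 163 and 187 CPM (contrast -0.70, SE 0.157, adjusted p = 0.011). NOLC1 (-0.69) and TAF1D (-0.70), a subunit of the RNA polymerase I factor SL1, were particular to MINO too. Without MINO replicate 1 or UPN-1 replicate 1, 7 of the 40 were called. Among the proteins of the ribosome itself, 0 of 46 cytosolic ribosomal protein genes were called (median -0.12), and their sums in MINO DMSO were 77313, 136353 and 70365 CPM, so replicate 2 was the highest. Of 29 genes of nucleotide and one-carbon synthesis, 8 were lower and 0 higher (median -0.28), and 5 were without JEKO replicate 2 or UPN-1 replicate 1 or 3. MTHFD1L and MTHFD2, mitochondrial enzymes of the folate cycle, had contrasts of -1.09 (SE 0.179) and -1.01 (SE 0.168). The purine enzymes PPAT (-0.67) and PFAS (-0.68) also fell in MINO. MTHFD2 went from 350, 303 and 346 CPM to 180, 115 and 174 CPM, with no overlap, while JEKO had 259 to 369 CPM in DMSO and 236 to 343 CPM treated.

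The promoter of PPAT, the enzyme of the committed step of purine synthesis, is shown because it holds an E-box of the form CACGTG, to which MYC and its partner MAX bind along with other factors. The 250 bases before the start are at chr4:56435616-56435865 (minus strand, RefSeq, GRCh38.p14), and the E-box in capitals begins 182 bases before the start.
PPAT: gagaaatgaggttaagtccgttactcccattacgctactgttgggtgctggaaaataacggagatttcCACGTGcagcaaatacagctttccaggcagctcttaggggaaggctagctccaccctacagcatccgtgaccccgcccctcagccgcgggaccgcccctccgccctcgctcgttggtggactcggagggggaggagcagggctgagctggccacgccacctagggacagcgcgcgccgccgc
The E-box was found in 2548 of 35116 promoters of all genes (7.26%), in 39 of 243 promoters of the lowered genes (16.0%) and in 20 of 346 of the raised genes (5.78%). The 39 promoters belong to 32 genes and the 20 to 16 genes. It was in 14 of 43 promoters of the ribosome biogenesis genes (32.6%), whether or not they moved, and in 9 of 40 of the nucleotide synthesis genes (22.5%). Shares varied among lists with no member called lower. The highest were 29.8% of 47 promoters of germline genes, 23.5% of 17 of the cyclin D list and 20% of 20 of the BCL2 family. Others were near or below the share of all promoters, with 7.55% of 53 for interferon-stimulated genes, 6.06% of 33 for MHC genes and 5% of 40 for the NF-kappaB list. Only 8 of the 40 germline genes were tested in the contrast.

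Genes of the ATF4 response and amino acid synthesis had the lowest median contrast of the lists, -0.90, with 9 of 24 called lower and 0 higher. In MINO 18 of the 24 fell (median effect -1.29), in JEKO 6 fell (median -0.35) and in UPN-1 1 fell (-0.23). Among all genes 8.1% fell in MINO, 1.43% in JEKO and 0.192% in UPN-1, so the list exceeded the share of each line. INHBE, which encodes an activin subunit and is a target of this pathway, went from 18.9, 23.6 and 20.2 CPM to 2.19, 1.31 and 0.586 CPM in MINO. JEKO had 212, 37.6 and 141 CPM in DMSO and 209, 26.4 and 101 CPM treated. The contrast was -3.61 (SE 0.373, adjusted p = 3.21e-05). CBS, which makes cystathionine from homocysteine and serine, fell from 9.12, 4.41 and 10.8 CPM to 1.46, 0.749 and 1.85 CPM (contrast -2.86, SE 0.316, adjusted p = 5e-05). DDIT4, an inhibitor of mTORC1, fell from 102, 1036 and 124 CPM to 40.1, 334 and 63.6 CPM, with DMSO replicate 2 far above the others. PYCR1, of proline synthesis, had a contrast of -1.07, and ATF4 itself, named for the list, of -0.76 (adjusted p = 0.00667).

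ASS1, argininosuccinate synthase, the enzyme with which cells make arginine from citrulline, fell in MINO from 179, 214 and 207 CPM to 10.8, 21.9 and 11.8 CPM. JEKO fell too, from 594, 71.2 and 436 CPM to 442, 29.2 and 115 CPM (log2 -1.21, adjusted p = 0.0047), and the difference remained in the contrast (-2.95, SE 0.272, adjusted p = 1.09e-05). Of 17 genes of arginine and polyamine metabolism 2 were called, ASS1 and, outside the rule for named genes, ODC1 (-0.73). Of 17 amino acid transporters, 7 were lower and 1 higher (median -0.33). The cystine transporter SLC7A11 went from 14.9, 8.93 and 18.6 CPM to 5.22, 2.81 and 1.56 CPM (contrast -2.27, SE 0.386, adjusted p = 0.00183). The glycine transporter SLC6A9 (-1.80) and SLC43A1 (-1.26) fell as well. Both also fell in JEKO, by less (SLC6A9 log2 -0.75, adjusted p = 0.0439, and SLC43A1 -0.53, adjusted p = 0.0411). Without MINO replicate 3, 4 of the 17 transporters were lower. SLC7A7, the light chain of a system for cationic amino acids, was the 1 transporter that rose (0.98).

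Of 20 aminoacyl-tRNA ligases, which charge tRNAs with amino acids, 7 were lower and 0 higher (median -0.34). WARS1 had the largest contrast of the named ligases (-1.27, SE 0.232), going from 335, 245 and 344 CPM to 124, 81.7 and 141 CPM in MINO. It is also induced by interferon, and in JEKO it stood at 1008, 161 and 756 CPM in DMSO. IARS1 fell from 217, 161 and 228 CPM to 115, 84.1 and 106 CPM (contrast -0.72, SE 0.145, adjusted p = 0.0057). The promoter of IARS1 is shown because it holds the composite C/EBP-ATF element TGATGCAA, which ATF4 binds as a dimer with C/EBP factors. The 250 bases before the start are at chr9:92293698-92293947 (minus strand, RefSeq, GRCh38.p14). The element in capitals lies on the opposite strand and begins 13 bases before the start.
IARS1: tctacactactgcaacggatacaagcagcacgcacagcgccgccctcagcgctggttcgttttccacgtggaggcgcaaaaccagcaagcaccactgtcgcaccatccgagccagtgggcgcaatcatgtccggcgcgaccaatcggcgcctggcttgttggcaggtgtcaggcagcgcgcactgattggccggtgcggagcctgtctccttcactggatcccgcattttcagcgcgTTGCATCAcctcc
It was found in 304 of 35116 promoters of all genes (0.866%), in 6 of 21 promoters of the ligases (28.6%), in 3 of 33 of the ATF4 list (9.09%), in 5 of 243 of the lowered genes (2.06%) and in 0 of 346 of the raised genes. The 5 promoters of lowered genes belong to 3 genes.

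Some genes of lipid and sugar metabolism were lower in the contrast, and most were not called. Of 34 genes of cholesterol and fatty acid synthesis, 8 were lower and 0 higher (median -0.33), and those called were 5 enzymes of fatty acid synthesis and desaturation and 3 genes of cholesterol uptake and efflux. FASN, fatty acid synthase, went from 398, 230 and 419 CPM to 249, 159 and 280 CPM (contrast -0.79, SE 0.140, adjusted p = 0.00254). ACACA (-0.92) and the desaturase SCD (-0.99) fell too. Of 33 genes of glycolysis and the hypoxia response, 9 were lower and 1 higher (median -0.41). The kinase PFKM, which commits sugar to glycolysis, fell from 70.4, 86.8 and 77.4 CPM to 25.9, 37.3 and 27.5 CPM (contrast -1.34, SE 0.134, adjusted p = 2.23e-05), and it was called without the pairing (adjusted p = 0.00366). BNIP3 fell in each pair, to 32.7, 174 and 28 CPM (-1.22, adjusted p = 5.25e-05), and SLC2A5, the fructose transporter, from 9.60, 57.3 and 8.68 CPM to 1.70, 7.11 and 1.95 CPM (-2.87, SE 0.192, adjusted p = 6.48e-07). Without MINO replicate 2, 13 of the 33 genes were called lower, and without MINO replicate 3 or UPN-1 replicate 1, 5.

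Several lists had few or no calls in the contrast. Of 38 DNA replication and E2F target genes, 1 was lower in the contrast, and the median effect was -0.35 in MINO and -0.42 in JEKO. Of 38 mitosis genes, 1 was higher and 2 were lower in the contrast. In MINO itself 15 of the 38 fell and 0 rose, beside 8.1% lowered among all genes, and 0 were called in JEKO or UPN-1. The median log2 ratio of the list was 0.05, -1.01 and -0.40 in MINO pairs 1, 2 and 3. In the contrast none was called among 13 mitochondrially encoded mRNAs, 18 other histone lysine demethylases, 8 germline genes and 20 genes of the KDM5 family and H3K4 methylases. KDM5B was at 66.8, 278 and 69.3 CPM in MINO DMSO and 66.8, 265 and 82.3 CPM treated. It rose in JEKO (log2 0.63, adjusted p = 0.0346), and the contrast of -0.46 was not called (adjusted p = 0.139). KDM5A and KDM5C had contrasts of -0.05 and -0.09 (adjusted p = 0.92 and 0.787). KDM5D had a log2 effect of -0.55 in MINO (adjusted p = 0.127). Without the pairing by number at most 2 genes were called in any list.

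**Figure D3:**
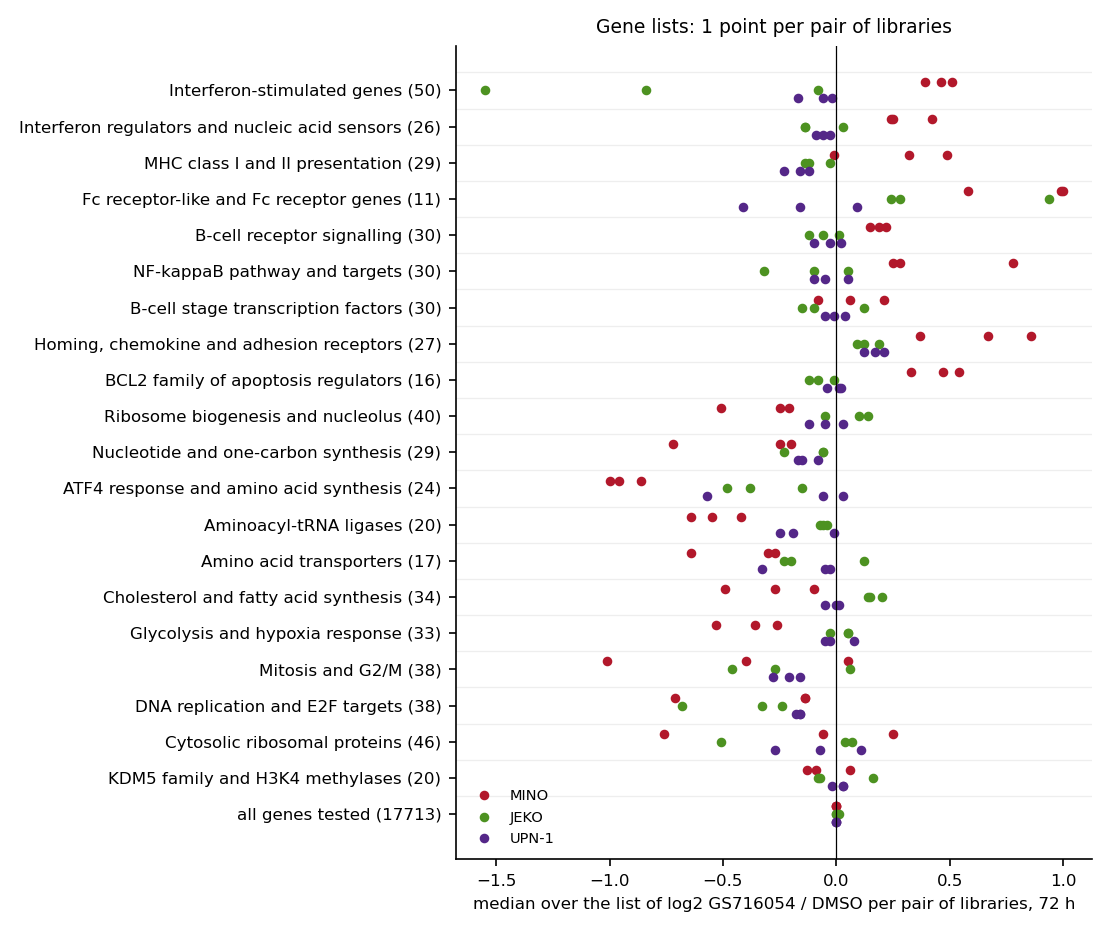
Median over each gene list of the log2 ratio of treated to DMSO CPM (0.5 CPM added), with 1 point for each replicate number in MINO (red), JEKO (green) and UPN-1 (purple), and the number of genes tested in brackets. The 3 MINO points lie right of the others for interferon-stimulated genes (0.39 to 0.51) and left of them for the ATF4 list (-1.0 to -0.86), and JEKO replicates spread from -1.55 to -0.08 for interferon-stimulated genes.

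Some genes moved in opposite directions. TAGAP, a GTPase-activating protein of lymphocytes, rose in MINO from 53.1, 63.1 and 55.6 CPM to 157, 189 and 103 CPM. It fell in JEKO from 50.5, 27.1 and 46.6 CPM to 20.2, 18.8 and 18.4 CPM and in UPN-1 from 29.2, 30 and 18.8 CPM to 18.2, 18.3 and 10.2 CPM. Each of the 3 effects was called (log2 1.35, -1.07 and -0.75), and the contrast was 2.26 (SE 0.194, adjusted p = 7.97e-06). A gene on the opposite strand overlaps 15.6% of its exon length. LRRC14B, a leucine-rich repeat protein, did the reverse. It fell in MINO from 91, 128 and 115 CPM to 58.1, 40 and 68.3 CPM and rose in JEKO from 18.6, 12.5 and 13.1 CPM to 31.1, 28.7 and 23.8 CPM and in UPN-1 from 9.31, 11 and 6.42 CPM to 17.8, 20.3 and 15.5 CPM. MINO stayed the highest line with either treatment, and the contrast was -1.99 (SE 0.209, adjusted p = 3.21e-05). The transcription factor TEAD4 (MINO -1.28, JEKO 1.15) and the sulfotransferase CHST3 (MINO -1.21, UPN-1 1.17) had called effects of opposite sign as well. NEK6, a mitotic kinase, was lower in the contrast (-2.50), but UPN-1 libraries held at most 0.485 CPM and their effect was not called.

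Untreated levels were compared in the 9 DMSO libraries of 24 h, which are not part of the 72 h contrast. There MINO differed from the mean of JEKO and UPN-1 at 9559 of 15439 genes (61.9%), 32.7% higher and 29.2% lower. Of 248 raised genes tested, 134 were higher in untreated MINO (54.0%) and 61 lower (24.6%), with a median log2 difference of 0.35. Of 197 lowered genes, 81 were higher (41.1%) and 62 lower (31.5%), median 0.12. The raised genes thus held both kinds, genes that MINO already expressed more and genes that it expressed less. CD37 (1.89), CCR7 (2.07), CD40 (1.53), CD79A (1.40) and LTB (5.17) were higher in untreated MINO. OSBPL10 (-4.78), HRK (-3.73), EPSTI1 (-2.44), FAM177B (-2.38), PECAM1 (-2.23) and LGALS3BP (-1.86) were lower. Among the lowered genes, LRRC14B (3.42), CHST3 (2.88) and MYC (1.42) were higher in untreated MINO and SLC2A5 (-2.61) and IARS1 (-1.04) lower. All these differences from the mean of JEKO and UPN-1 were called, and the largest adjusted p was 1e-06, for EPSTI1. For MYC the 24 h DMSO mean in MINO was 507 CPM, close to JEKO (487 CPM) and far above UPN-1 (73.3 CPM).

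At 72 h in DMSO, MINO was the highest line for 103 of the 249 raised genes (41.4%) and 78 of the 198 lowered genes (39.4%), beside 30.2% of all genes. It was the lowest line for 31 of the 50 interferon-stimulated genes, beside 35.1% of all genes, and the highest for 20 of the 29 MHC genes. For some lowered genes the DMSO level of MINO differed between the times. ASS1 was at 15.7, 20.2 and 12.4 CPM in MINO DMSO at 24 h and at 179, 214 and 207 CPM at 72 h, and INHBE at 3.19, 3.07 and 2.53 CPM and at 18.9, 23.6 and 20.2 CPM. Libraries of the 2 times were scaled separately, and the difference between times was not tested.

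The same contrast in the 24 h libraries was called at 2217 of 16274 genes (13.6%), 6.54% higher and 7.08% lower, and at 1005 without MINO replicate 2. Of 248 genes raised at 72 h and tested at 24 h, 162 were called higher (65.3%) and 0 lower, with a median contrast of 0.62. Of 198 lowered genes, 116 were called lower (58.6%) and 3 higher, with a median of -0.66. LTB was at 23.7, 39.7 and 23.8 CPM in MINO DMSO and 107, 215 and 98.1 CPM treated at 24 h (contrast 2.85, SE 0.428, adjusted p = 0.000345). MYC was at 511, 545 and 464 CPM and 177, 169 and 178 CPM (-1.53, SE 0.106, adjusted p = 5.67e-07). SCIMP (2.45), TAGAP (1.24), CD40 (0.93), LRRC14B (-1.44), PFKM (-0.85) and MTHFD1L (-1.08) were also called at 24 h.

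Other genes of the 72 h response were not called at 24 h. FCRL3 was at 1.18, 0.512 and 0.785 CPM in DMSO and 0.537, 3.38 and 0.982 CPM treated at 24 h (contrast 1.17, SE 0.905, adjusted p = 0.463). EPSTI1 had a contrast of 1.38 (adjusted p = 0.0636), INHBE of -0.57 (adjusted p = 0.316) and SLC2A5 of -0.09 (adjusted p = 0.801). By list, 30 of 40 ribosome biogenesis genes and 21 of 29 nucleotide synthesis genes were called lower at 24 h. For interferon-stimulated genes 10 of 46 were higher, and for the ATF4 list 7 of 23 were lower and 1 higher. The 3 genes called with the opposite sign at 24 h were LETMD1 (0.40), DDIT4 (0.84) and the unnamed ENSG00000269926 (0.74), named because they were the exceptions. Over all, 20 of the 198 lowered genes had a positive 24 h contrast and 5 of the 248 raised genes a negative one. The log2 effect on DDIT4 in MINO was 1.12 at 24 h and -1.32 at 72 h. Whether effects differed between the times was not tested.

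**Figure D4:**
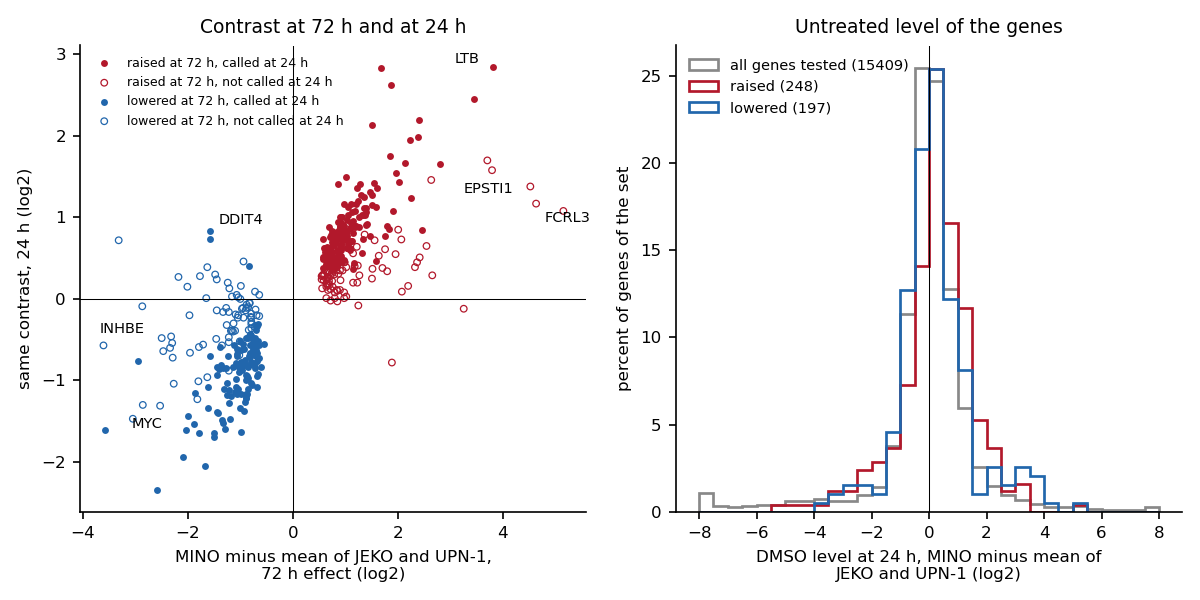
Left, the contrast at 72 h (horizontal) and at 24 h (vertical) for the genes particular to MINO, filled where called at 24 h: 162 raised genes are called higher, and 116 lowered genes are called lower with 3 called higher. Right, the distribution of the log2 difference in DMSO level at 24 h, MINO minus the mean of JEKO and UPN-1 (values beyond the axis in the outer bins), where the raised set is centred at 0.35 and the lowered set at 0.12.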

How the data were processed

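RNA sequencing libraries of 18 samples at 72 h and 18 at 24 h were used. The authors deposited 1 table of raw read counts per library, made with HISAT2 2.2.1 and HTSeq 0.13.5 on GRCh38, per the submitters' processing notes; the strand setting is not given in the sources used here. Reads in no feature (43.369% to 45.927% at 72 h) were left out. Of 58302 gene IDs, 57532 matched GENCODE 44. Counts were fitted with edgeR 4.0.16 in R 4.3.3 (quasi-likelihood test, TMM, filterByExpr with minimum count 10 and minimum total 15), with 9 blocks of line by replicate number, a treatment effect per line and 6 residual degrees of freedom. Pairing by number was part of the design set for this contrast. Same-numbered deviations correlated over 0.1 in every pair (0.23 to 0.57), in the same libraries that the contrast uses. Adjusted p are Benjamini-Hochberg values over all genes tested. CPM use TMM sizes within a time. Named are KDM5A to KDM5D, the 15 largest rises and 15 largest falls particular to MINO with at least 5 CPM in a MINO group and no overlap there, and, per list, up to 4 genes particular to MINO by smallest p, whatever their level or overlap; a gene outside this rule is marked in the text. Members and lists were chosen with earlier results of these data known. Scripts were tested on simulated data. Alternatives were DESeq2 1.42.0, its size factors, no filter, a minimum count of 50, no block, all 36 libraries, and each pair left out. Intervals and floors of counts cover counting error only. Some results are not reported here.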

Additional observations from a re-analysis of the deposited data

Results flagged for a closer look

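The effect of GS716054 differed between MINO and the mean of JEKO and UPN-1 at 1414 genes at 72 h and at 2217 genes at 24 h, between MINO and JEKO at 1086 genes and between MINO and UPN-1 at 741 genes, each by the test of the difference itself. Among the named genes, 14 had an effect called in MINO and an effect of opposite sign called in JEKO or UPN-1. Rising in MINO and falling in another line were MX1 (contrast 2.33), TAGAP (2.26), TRIM22 (1.41), CD40 (1.11), ETS1 (1.05), CD37 (1.04) and RELB (0.96). Falling in MINO and rising in another line were NEK6 (-2.50), CHST3 (-2.29), RNF157 (-2.10), TEAD4 (-2.04), LRRC14B (-1.99), MYLIP (-1.48) and CD86 (-1.0). RNF157 has 27.8% of its exon length overlapped by a gene on the opposite strand. MYLIP stood at 26.8, 257 and 22.5 CPM in MINO DMSO replicates 1, 2 and 3, and CD86 at 35.6, 52.5 and 32.7 CPM.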

How the results depend on the processing

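The counts for the contrast at 72 h, MINO minus JEKO, MINO minus UPN-1 and the effects in MINO, JEKO and UPN-1 were 46, 17, 15, 462, 12 and 6 without the replicate block, against 1414, 1086, 741, 3064, 547 and 212 with it. The contrast at 24 h then gave 1332 genes and the set particular to MINO 9. With all 36 libraries in 1 fit, the contrast gave 2201 genes, MINO minus JEKO 1798, MINO minus UPN-1 1282, the JEKO effect 948, the UPN-1 effect 344 and the particular set 801. Without the low-count filter, MINO minus UPN-1 gave 1211, the JEKO effect 973, the UPN-1 effect 509 and the particular set 695, and the contrast gave 863 higher and 957 lower. With 1 pair left out, the counts ranged from 793 to 1681 for the contrast, 625 to 1395 for MINO minus JEKO, 218 to 1126 for MINO minus UPN-1, 1837 to 3376 in MINO, 133 to 1039 in JEKO, 34 to 365 in UPN-1, 1005 to 3230 for the contrast at 24 h, 8858 to 9492 for the DMSO levels and 165 to 663 for the particular set. The cause was not tested. DESeq2, its size factors and a minimum count of 50 kept every such count within 1.5 times. Of 92 named genes, none changed sign under any of these alternatives, 74 were no longer called without the replicate block, 4 without MINO replicate 1 (ST6GALNAC3, EGR1, FKBP11 and SYT11) and 3 without MINO replicate 3 (ST6GALNAC3, BLK and SYT11). In the shallowest library 3 counts are 0.341 CPM, which limits the contrast for genes near 0 in a line.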
